A study of Mus musculus with 12 samples.

Results

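The genes described here were 10 mouse genes that have been reported elsewhere as targets of the miRNA miR-183-5p, namely Foxo1, Egr1, Smad4, Pdcd4, Itgb1, Ezr, Kif2a, Akap12, Ptpn4 and Dkk3. They were chosen by name, and their levels in these tumours were not part of the rule, but earlier results of these data were known then. All 10 were found among the 35865 genes in the tables, and all 10 were among the 15473 genes with enough reads to be tested (at least 10 reads in at least 3 libraries). The libraries came from 4T1 tumours, which are grown from a mouse mammary carcinoma cell line placed under the skin of female BALB/c mice aged 6 to 8 weeks (100000 cells per mouse). From day 5 the mice were given extracellular vesicles (EVs, membrane-bound particles shed by cells) beside the tumour, 3 µg every 2 days, and tumour RNA was taken on day 21. All 4 groups received EVs from the mouse endothelial cell line MS-1, so that no group was without EVs. The groups differed in the double-stranded miRNA mimic put into the EVs by electroporation, which was cel-miR-67 (a nematode miRNA that mice lack, called ctrl), miR-222-3p, miR-142-5p or miR-183-5p. Each group held 3 tumours. The study examined how such vesicles act on tumour growth and on tumour macrophages, and the comparison made here asks whether the reported target mRNAs were lower in the tumours that received miR-183-5p.

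A miRNA is a short RNA that guides an Argonaute protein to mRNAs, mostly through pairing between the miRNA's seed (bases 2 to 8) and the 3′ UTR of the mRNA. Pairing shortens the life of the mRNA or holds back its translation, and the change in mRNA level is usually modest. miR-183-5p is made from a cluster that also holds miR-96 and miR-182, is best known from sensory cells of the ear and the eye, and is often raised in carcinomas. Only polyadenylated RNA was sequenced, so that neither the mimics themselves nor protein levels were measured in these libraries.

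The mature sequences are shown first, since the seed of each miRNA defines the match that was searched for in the target genes. They are given 5′ to 3′ from RefSeq (GRCm38.p6), with the seed in capitals. None of the 3 seeds is shared with another. The control cel-miR-67 is named only.
mmu-miR-183-5p: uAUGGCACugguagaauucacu
mmu-miR-142a-5p: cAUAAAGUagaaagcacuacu
mmu-miR-222-3p: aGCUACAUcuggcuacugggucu
The genes of these miRNAs lie at chr6:30169711-30169732 on the minus strand for miR-183-5p, at chr11:87756867-87756887 on the plus strand for miR-142-5p, and at chrX:19146901-19146923 on the minus strand for miR-222-3p, as positions of the mature sequence.

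The sites in the target genes are shown next, because they are what the members share apart from their reports. A seed match was searched on the transcribed strand of the annotated 3′ UTR (GENCODE M21, GRCm38). An 8mer is GTGCCATA, a 7mer-m8 is GTGCCAT without the final A, and a 7mer-A1 is TGCCATA without the first G, so that each position was counted in 1 class only. The main transcript of a gene was the one with the highest mean TPM among its transcripts with an annotated 3′ UTR. For Akap12 it held 38.6% of the gene's TPM. In the main transcript, 3 genes held an 8mer (in capitals), each with its neighbouring bases.
Ezr: tgtggctcacggGTGCCATActtttc
Kif2a: attttgcaggatGTGCCATAtcaatt
Ptpn4: gttatgttcactGTGCCATAatactg
These lay at chr17:6738986-6738993, chr13:106961492-106961499 and chr1:119659773-119659780, all on the minus strand. The Ptpn4 match was 51 bases behind the stop codon, that of Ezr 310 bases and that of Kif2a 640 bases. In 5 more genes (Foxo1, Egr1, Itgb1, Pdcd4 and Akap12) the match was of the 7mer-m8 class, and those of 4 are shown in the same way.
Foxo1: tagataaggactGTGCCATtgggaa
Itgb1: tttaaaacctgtGTGCCATtgtgag
Pdcd4: gctactttctaaGTGCCATgtttag
Akap12, first: atttgccccttgGTGCCATgtattt
Akap12, second: ggacagatgagtGTGCCATggccat
These were at chr3:52347215-52347221, chr8:128732674-128732680, chr19:53929448-53929454, chr10:4358694-4358700 and chr10:4359216-4359222 on the plus strand. Akap12 was the only member with 2 matches of this class. Besides its 8mer, Ptpn4 held a 7mer-A1 match in its main transcript, 915 bases behind the stop codon.

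In total, 8 of the 10 members held an 8mer or 7mer-m8 match to miR-183-5p in the 3′ UTR of their main transcript. Among the 14680 tested genes with an annotated 3′ UTR, 9.34% held such a match, and among the 8638 UTRs within the members' length range the share was 13.7%. An 8mer was present in 3 of the 10 members, against 1.63% of the 14680 UTRs. For miR-142-5p the same search found 1 of 10 members (Ptpn4, with 4 matches of the 7mer-m8 class), where 14.1% of the UTRs held a match, and for miR-222-3p it found 0 of 10, where 9.48% did. The matches are letters in an annotation, not shown sites of binding. Reported targets are often picked with the help of seed predictions, so this share is not independent of how the genes came to be reported. Egr1 held a 7mer-m8 match 404 bases behind its stop codon, and Smad4 and Dkk3 held no match of any class in any annotated 3′ UTR.

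**Figure D1:**
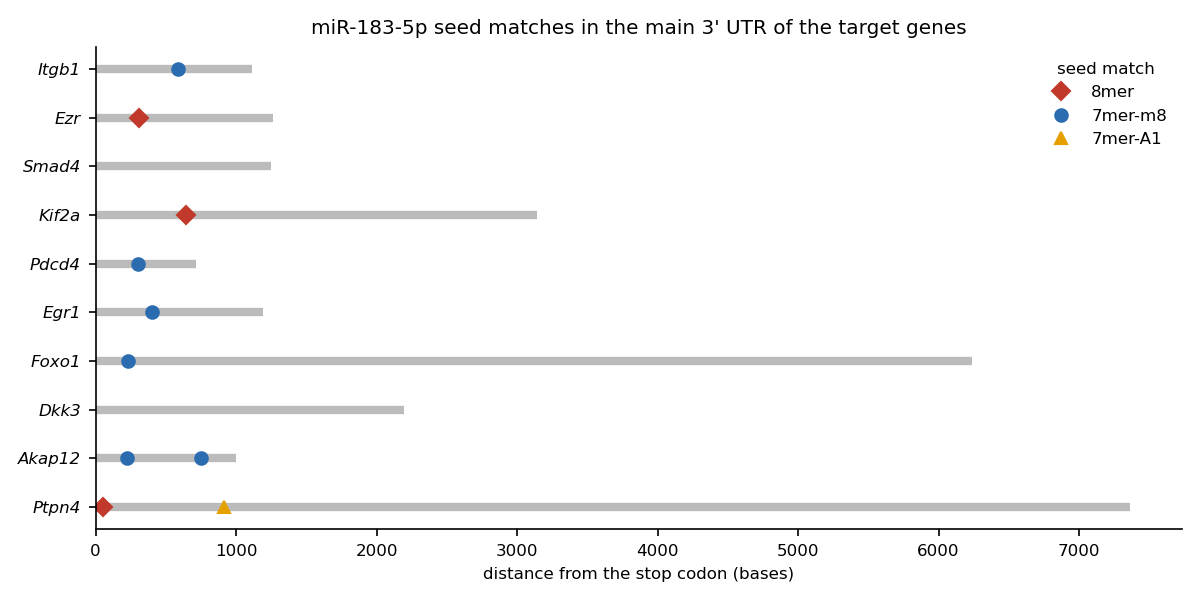
Annotated 3′ UTR of the main transcript of each target gene as a grey bar, by distance from the stop codon in bases, with miR-183-5p seed matches as symbols (diamond for 8mer, circle for 7mer-m8, triangle for 7mer-A1). 8 of the 10 genes carry an 8mer or a 7mer-m8, and Smad4 and Dkk3 carry none.

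A transcript can respond to a site only where its own 3′ UTR holds it, and the share of each gene's TPM on transcripts with a site was therefore computed. TPM is a transcript level per unit of length, scaled to the same total in each library. The share was 100% for Foxo1 and Egr1, and over the groups it was 99.7% to 99.9% for Itgb1, 94.0% to 98.7% for Ptpn4 and 92.3% to 94.4% for Ezr. It was lower for Pdcd4, with 71.3% ± 11.9 in ctrl and 84.0% ± 2.96 in miR-183-5p (SD, n = 3). Kif2a had 64.0% ± 12.0 and 58.6% ± 9.33 in the same groups. Akap12 had 39.1% ± 23.0 and 42.7% ± 11.2, with the rest of its TPM on a transcript for which no coding region is annotated. Shares of transcripts within a gene depend on how the authors' program split shared reads.

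The libraries held 20285968 to 27021401 estimated reads, which placed between 186 and 24175 reads on each member. The marker genes of carcinoma cells (Epcam, Cdh1, Krt8, Krt18 and Krt19) were present in every tumour, with a summed level of 1265 to 1855 TPM, and each library also held macrophage, neutrophil, fibroblast and endothelial markers, so that each value is a level over a mixed tissue. Fewer cells of a type and less RNA per cell cannot be told apart in such samples. miR-142-5p tumour 3 stood apart, with 333 TPM for 3 B cell markers (Cd79a, Cd79b and Ms4a1) against 0.898 to 2.10 TPM in the other 11 tumours, and with 137 TPM for 5 T cell markers against 20.6 to 62.9 TPM. miR-183-5p tumour 3 stood apart in 2 ways. It held 232 TPM for 4 skeletal muscle markers against 1.81 to 15.9 TPM in the others, and the share of reads that the mitochondrial gene mt-Co2 lost to its near copy Gm28661 was 0.0169%, as low as in the miR-222-3p tumours (at most 0.324%) and unlike the other 8 tumours (7.13% to 41.8%).

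The markers of other cell types differed between the groups as well. All 6 macrophage markers (Adgre1, Csf1r, Cd68, C1qa, C1qb and Mrc1) had a log2 fold change below 0 in miR-183-5p against each other group, with a median of -0.45 against ctrl, and their summed level was 899 to 1336 TPM against 1358 to 1700 TPM in ctrl, 1457 to 2122 TPM in miR-142-5p and 1185 to 1805 TPM in miR-222-3p. All 5 neutrophil markers (S100a8, S100a9, Csf3r, Retnlg and Cxcr2) were above 0 against each group, with a median of 0.66 against ctrl, and summed to 1877 to 3039 TPM against 1049 to 2008 TPM in ctrl, 1017 to 1659 TPM in miR-142-5p and 880 to 2007 TPM in miR-222-3p. None of these 11 genes passed the adjusted threshold of DESeq2, and against ctrl 2 of the macrophage and 2 of the neutrophil markers had an unadjusted p under 0.05. The part of these cell types in the values of the target genes and pathway genes below was not tested.

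Against ctrl, 0 of the 10 members passed the threshold of 0.05 on the Benjamini-Hochberg adjusted p-value of DESeq2, where 0% of all genes tested passed it (0 by edgeR also), and 0 members had an unadjusted p under 0.05, where 3.22% of all genes did. The log2 fold change was below 0 for 3 of the 10 members (Ptpn4, Pdcd4 and Ezr) and for 52.7% of all genes tested. The median over the members was 0.06 and the median over all genes -0.01. No member was lower in miR-183-5p without overlap between the tumours of the groups (4.76% of all genes were), and 1 was higher without overlap, which was Dkk3 (4.45% of all genes). The adjusted p-value was 0.9999 for each of the 10.

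Against miR-142-5p, 0 members passed the adjusted threshold (0.0519% of all genes), and 1, Ezr, had an unadjusted p under 0.05 (7.95% of all genes). Ezr was also the 1 member that was lower without overlap (6.43% of all genes), and 0 were higher without overlap (5.92%). Against miR-222-3p, 0 passed the adjusted threshold (0.0324%) and 0 the unadjusted (3.25%), while 0 were lower (4.46%) and 1, Akap12, was higher (4.6%) without overlap of the normalised counts. Against the mean of the other 3 groups, 0 passed the adjusted (0.0194%) or the unadjusted threshold (5.7%), and 0 were lower (0.355%) or higher (0.491%) than all 9 other tumours. The members below 0 numbered 4, 5 and 4 of 10 in these contrasts, with medians of 0.06, 0.00 and 0.08. The 4 contrasts share the miR-183-5p tumours and are not independent of each other.

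**Figure D2:**
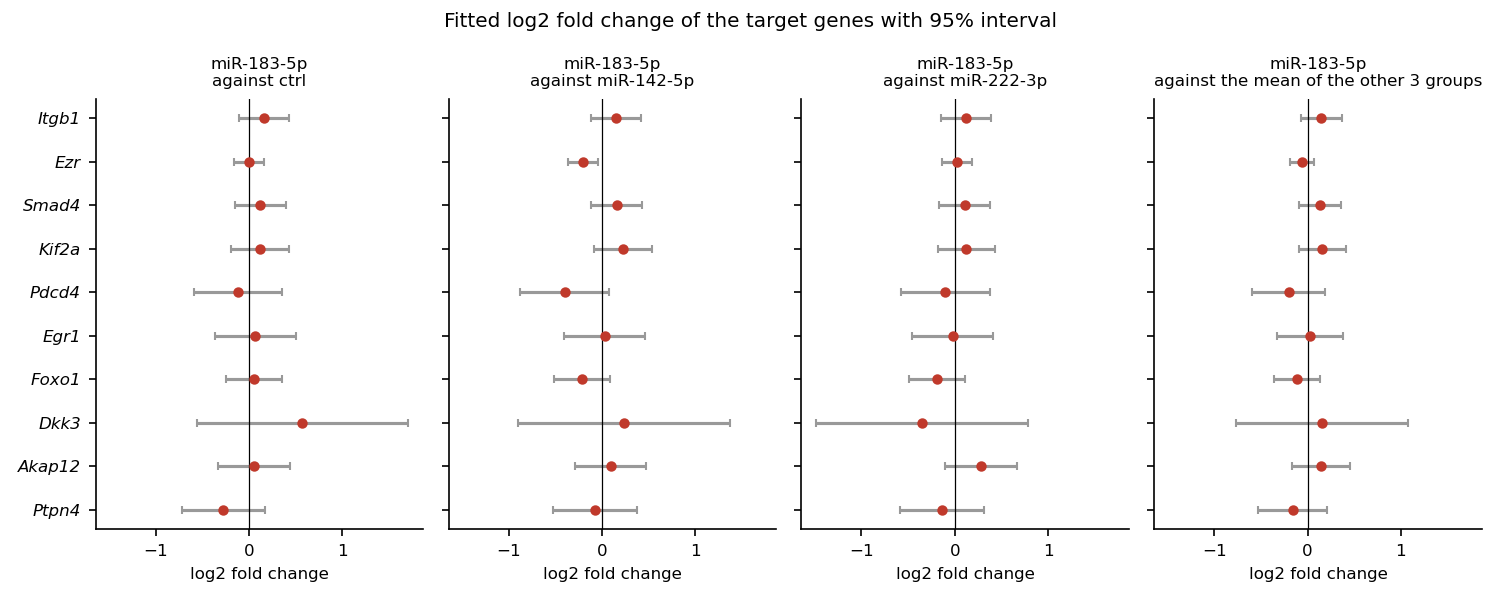
Fitted log2 fold change of each target gene (points) with its 95% interval (bars) in miR-183-5p against each of the other groups and against their mean. The interval of Ezr against miR-142-5p, from -0.36 to -0.04 before any adjustment, is the only one that leaves out 0, and that of Dkk3 is the widest in each panel.

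The transcription factors come first. Foxo1 (ENSMUSG00000044167.6, chr3:52268336-52353221, plus strand) is a forkhead factor held out of the nucleus by AKT signalling, and it is the member most often named beside miR-183-5p. Its level was 8.09, 8.56 and 10.8 TPM in ctrl tumours 1 to 3 and 8.89, 10.5 and 13.5 TPM in those given miR-142-5p. With miR-183-5p it was 10.4, 9.79 and 7.76 TPM, and with miR-222-3p 11.8, 11.5 and 9.39 TPM. The miR-183-5p values lay inside the range of the others apart from tumour 3, which was the lowest of the 12. Fitted log2 fold changes were 0.06 (SE 0.15) against ctrl, -0.21 (SE 0.15) against miR-142-5p and -0.19 (SE 0.15) against miR-222-3p. The 95% interval against ctrl reached from -0.25 to 0.36, so its lower end stood for a level 15.7% below ctrl. Without miR-183-5p tumour 3 the values were 0.17, -0.10 and -0.08. Without miR-142-5p tumour 3, the contrast with that group was -0.10.

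Egr1 (ENSMUSG00000038418.7), a zinc finger factor of the immediate early response, was at 12.4, 15.9 and 18.6 TPM in ctrl and 16.6, 12.8 and 17.98 TPM in miR-142-5p. The miR-183-5p tumours held 19.2, 17.2 and 11.6 TPM and the miR-222-3p tumours 15.4, 14.3 and 19.7 TPM. The miR-183-5p tumours spanned nearly the whole range, since tumour 3 was the lowest of all 12. The group means lay within a factor of 1.06 of each other, and the log2 fold change against ctrl was 0.07 (SE 0.22), or 0.25 without tumour 3.

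Smad4 (ENSMUSG00000024515.13), the partner that SMAD proteins need to relay TGF-β and BMP signals, was at 37.6, 44.3 and 57.7 TPM in ctrl and 43.2, 42.5 and 48.7 TPM in miR-142-5p. It was at 53.5, 41.4 and 54.0 TPM in miR-183-5p and at 47.3, 44.9 and 48.5 TPM in miR-222-3p. The ctrl tumours spanned all the others. Its log2 fold change was above 0 in each contrast, at 0.12 (SE 0.14) against ctrl, 0.16 (SE 0.14) against miR-142-5p and 0.11 (SE 0.14) against miR-222-3p. Without miR-183-5p tumour 3 these were 0.06, 0.09 and 0.04, and without a correction for transcript length the first was 0.03. Smad4 is one of the members without a seed match in its annotated 3′ UTRs.

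Pdcd4 (ENSMUSG00000024975.13, chr19:53892231-53929860, plus strand) encodes an inhibitor of the translation helicase eIF4A. Its level was 17.98, 11.7 and 20.7 TPM in ctrl and 14.4, 18.4 and 29.0 TPM in miR-142-5p. The values for miR-183-5p were 15.8, 16.6 and 13.4 TPM and those for miR-222-3p 19.8, 15.7 and 14.8 TPM. miR-183-5p had the lowest group mean, 15.3 ± 1.65 TPM (SD, n = 3), but ctrl tumour 2 was below each of its tumours. DESeq2 gave a log2 fold change of -0.11 (SE 0.24) against ctrl and -0.40 (SE 0.24) against miR-142-5p, which was the value farthest below 0 of any member. Without miR-142-5p tumour 3, the highest of the 12 and the tumour rich in B cell and T cell markers, the latter was -0.14. The interval against ctrl reached down to a level 33.6% lower.

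**Figure D3:**
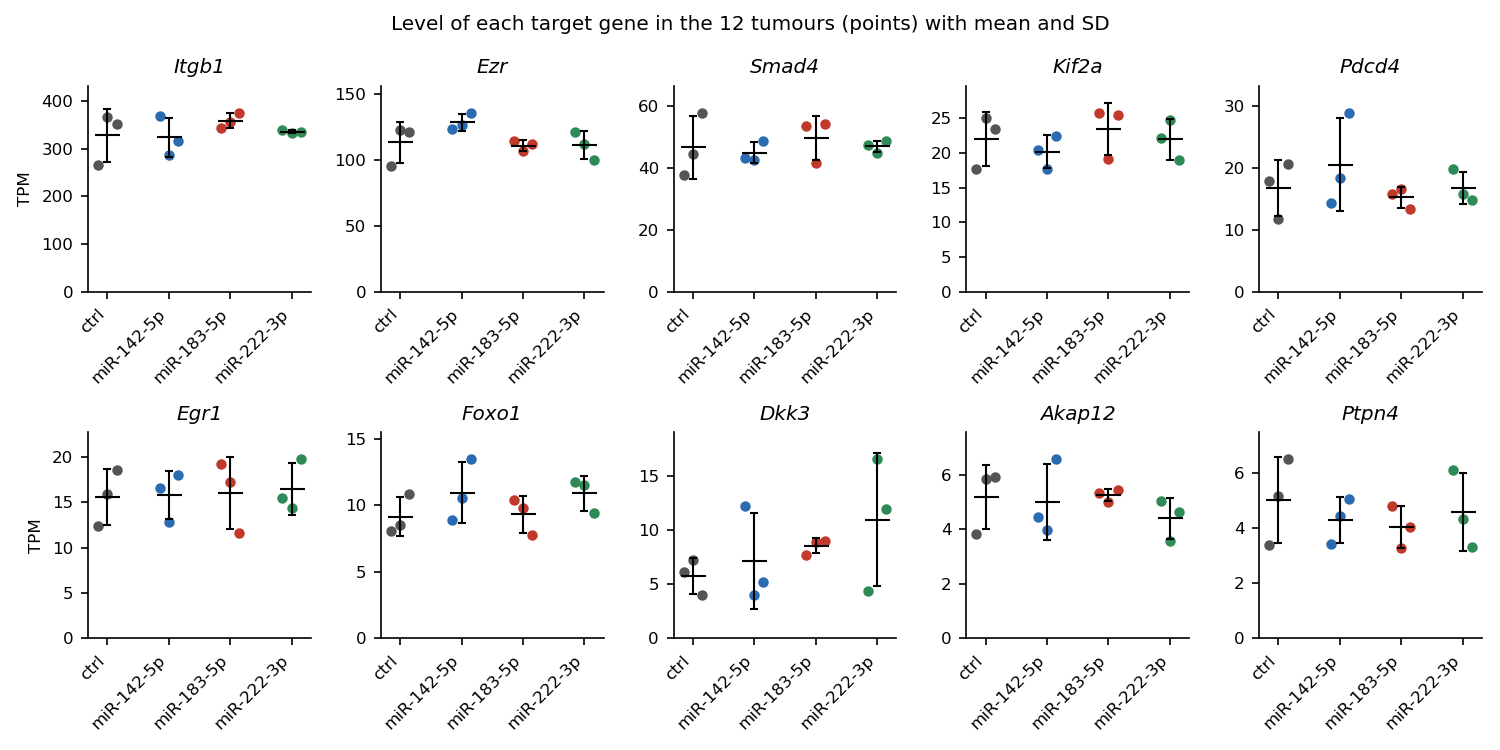
Level of each target gene in TPM (vertical axes, from 0) in the 3 tumours of each group (points), with the group mean and SD (black). The miR-183-5p tumours (red) lie within the spread of the other groups for most genes. By TPM they do not overlap with miR-142-5p for Ezr, with ctrl for Dkk3 and with miR-222-3p for Itgb1. By normalised counts the Itgb1 tumours overlap. On those counts 6.43% of all genes were lower than miR-142-5p and 4.45% higher than ctrl without overlap. No such share was computed for TPM.

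Among the members that act at the cell surface and on the cytoskeleton, Itgb1 (ENSMUSG00000025809.15, chr8:128685654-128733200, plus strand) encodes the integrin β1 chain, the common partner of many collagen, laminin and fibronectin receptors. It was the most abundant member and stood above 97.4% of all genes tested by mean TPM. Its level was 265, 366 and 352 TPM in ctrl and 367, 287 and 317 TPM in miR-142-5p. The miR-183-5p tumours had 343, 357 and 375 TPM and the miR-222-3p tumours 339, 333 and 334 TPM. The miR-183-5p group had the highest mean, and its tumour 3 was the highest of the 12. The log2 fold change was 0.16 (SE 0.14), 0.15 (SE 0.14) and 0.12 (SE 0.14) against ctrl, miR-142-5p and miR-222-3p. The first was 0.08 without ctrl tumour 1. The second was 0.30, 0.07 and 0.08 without miR-142-5p tumour 1, 2 or 3. Against ctrl the interval, -0.11 to 0.43, had its lower end at a level 7.25% below, the tightest such bound among the members.

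Ezr (ENSMUSG00000052397.8, chr17:6738041-6782784, minus strand) encodes ezrin, which ties the plasma membrane to actin filaments. It was at 95.6, 123 and 121 TPM in ctrl and at 124, 127 and 136 TPM in miR-142-5p. It was at 114, 107 and 112 TPM in miR-183-5p and at 121, 112 and 100.2 TPM in miR-222-3p. Every miR-183-5p tumour lay below every miR-142-5p tumour, and the 3 lay inside the range of ctrl. Every ctrl and every miR-222-3p tumour was also below every miR-142-5p tumour, so that miR-142-5p was the high group. The log2 fold change against miR-142-5p was -0.20 (SE 0.08), with an unadjusted p of 0.0129 and an adjusted p of 0.424 in DESeq2. The value ranged from -0.21 to -0.18 over the 23 other settings tried, the lowest adjusted p being 0.342. It was -0.21 without miR-142-5p tumour 3 and also without miR-183-5p tumour 3. Against ctrl it was -0.00 (SE 0.08) and against miR-222-3p 0.03 (SE 0.08), and both changed sign under some settings. The standard error of Ezr was the smallest of the members, and its interval against ctrl reached from -0.16 to 0.16.

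Kif2a (ENSMUSG00000021693.20, chr13:106958996-107022126, minus strand) encodes a kinesin that takes microtubules apart at their ends. It was at 17.7, 25.0 and 23.4 TPM in ctrl and 20.4, 17.7 and 22.5 TPM in miR-142-5p. It was at 25.7, 19.1 and 25.5 TPM in miR-183-5p and 22.1, 24.7 and 18.9 TPM in miR-222-3p. Tumours 1 and 3 of miR-183-5p were the highest of the 12. Its log2 fold change was 0.12 (SE 0.16) against ctrl and 0.23 (SE 0.16) against miR-142-5p, and this gene with an 8mer had a fitted value above 0 in each contrast. Without the correction for transcript length the values were smaller, at 0.02 against ctrl, 0.11 against miR-142-5p and 0.02 against miR-222-3p. Against ctrl the value was 0.03 without ctrl tumour 1 and 0.24 without miR-183-5p tumour 2.

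Akap12 (ENSMUSG00000038587.9, chr10:4266380-4359470, plus strand) encodes a scaffold that holds protein kinase A and protein kinase C near the membrane. Its level was 3.80, 5.82 and 5.90 TPM in ctrl, 4.46, 3.96 and 6.56 TPM in miR-142-5p, 5.33, 4.99 and 5.44 TPM in miR-183-5p and 5.02, 3.56 and 4.61 TPM in miR-222-3p. The miR-183-5p tumours were close together and in the middle of ctrl. In normalised counts (reads scaled between libraries and corrected for transcript length) they were 513, 499 and 534, above the 455, 345 and 469 of the miR-222-3p tumours. The log2 fold change against miR-222-3p was 0.28 (SE 0.20), with an unadjusted p of 0.147 and an adjusted p of 0.999 in DESeq2. Without miR-222-3p tumour 2 it was 0.16.

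Ptpn4 (ENSMUSG00000026384.13, chr1:119652467-119837613, minus strand) encodes a tyrosine phosphatase with a FERM domain and was the least abundant member. It was at 3.39, 5.17 and 6.49 TPM in ctrl and 3.41, 4.43 and 5.05 TPM in miR-142-5p. It was at 4.81, 3.28 and 4.04 TPM in miR-183-5p and 6.11, 4.33 and 3.32 TPM in miR-222-3p. miR-183-5p had the lowest mean, 4.04 ± 0.765 TPM against 5.02 ± 1.56 TPM in ctrl (SD, n = 3), and the ranges overlapped. Ptpn4 had the log2 fold change farthest below 0 against ctrl, at -0.27 (SE 0.23), with an unadjusted p of 0.236 in DESeq2. All 3 miR-183-5p normalised counts were below the ctrl mean. The interval of -0.72 to 0.18 reached a level 39.4% lower, so a reduction of that size could not be told from none with these tumours. The value stayed below 0 in all 23 other settings, between -0.45 without ctrl tumour 1 and -0.09 without ctrl tumour 3.

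Dkk3 (ENSMUSG00000030772.6, chr7:112116017-112159057, minus strand) encodes a secreted protein of the Dickkopf family, whose other members bind Wnt co-receptors. It was the most variable member, with a 4.18-fold range over the 12 tumours. Its level was 6.10, 7.26 and 3.96 TPM in ctrl and 12.2, 3.95 and 5.23 TPM in miR-142-5p. With miR-183-5p it was 7.73, 8.88 and 8.98 TPM and with miR-222-3p 4.36, 16.5 and 11.9 TPM. The miR-183-5p tumours were above all ctrl tumours and inside the range of both other groups. Against ctrl its log2 fold change was 0.58 (SE 0.58), with an interval of -0.56 to 1.71 and an unadjusted p of 0.320 in DESeq2. Without ctrl tumour 3 it was 0.34. The summed level of 5 fibroblast markers (Col1a1, Col1a2, Pdgfra, Pdgfrb and Dcn) was also above ctrl in each miR-183-5p tumour. It was 579 to 767 TPM against 272 to 576 TPM. The miR-142-5p tumours had 181 to 534 TPM of these markers, and the miR-222-3p tumours, at 250 to 926 TPM, spanned the miR-183-5p values. The part of fibroblast content in the Dkk3 value was not tested.

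The members differed in how much they varied between tumours. The coefficient of variation of the TPM over the 12 tumours ran from 9.79% for Itgb1 and 9.93% for Ezr, over 12.5% for Smad4, 14.0% for Kif2a, 16.6% for Foxo1, 17.1% for Egr1 and 18.5% for Akap12, to 24.2% for Ptpn4, 25.8% for Pdcd4 and 47.9% for Dkk3. The median of the members was 16.9%, that of all genes tested 17.0%, and that of the 8526 genes within the members' range of normalised counts 12.4%. By mean TPM, miR-183-5p ranked lowest of the 4 groups for Pdcd4, Ezr and Ptpn4, and highest for Itgb1, Kif2a, Akap12 and Smad4. The place of Ezr held only for TPM (111.01 TPM against 111.3 in miR-222-3p), since by normalised counts miR-222-3p was lower (5130 against 5227). Where the groups were ordered by mean TPM, the tumours of neighbouring groups overlapped, apart from Itgb1, for which the lowest miR-183-5p tumour (343 TPM) was just above the highest miR-222-3p tumour (339 TPM), and Ezr, for which the lowest miR-142-5p tumour (124 TPM) was just above the highest ctrl tumour (123 TPM). By normalised counts the Itgb1 tumours of those groups overlapped.

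Across tumours the members did not move as a single group. Of the 45 pairs of members, 27 had a Pearson r above 0 over the 12 tumours, with a median r of 0.13 (log2 normalised counts, which share the libraries' scaling), while 4 pairs had an r above 0.5 and 4 an r below -0.5. The highest pair was Foxo1 with Pdcd4 (r = 0.71, Spearman's rho = 0.59, r = 0.44 without the 2 tumours farthest from the median), and the lowest was Pdcd4 with Itgb1 (r = -0.69, rho = -0.84, r = -0.77 without the 2 tumours). Foxo1 and Pdcd4 were high where T cell markers (Cd3e, Cd3d, Cd3g, Cd4 and Cd8a) were high, with r = 0.85 for both on log2 TPM and rho of 0.78 and 0.75. Without the 2 tumours farthest in the markers the r was 0.67 and 0.64. Dkk3 followed the fibroblast markers (r = 0.81, rho = 0.73, r = 0.72 without 2 tumours). Ptpn4 followed the endothelial markers Pecam1, Cdh5, Kdr, Tek and Emcn (r = 0.73, rho = 0.62, r = 0.41 without 2 tumours). Foxo1 and Pdcd4 followed these endothelial markers too, with r of 0.72 and 0.70 and rho of 0.80 and 0.71. Without the 2 tumours farthest in them the r was 0.74 and 0.69. Pdcd4 also had an r of 0.77 with the B cell markers (0.43 without 2 tumours), -0.72 with the carcinoma markers and -0.66 with the fibroblast markers. The T cell markers summed to 20.6 to 46.7 TPM in miR-183-5p and 33.5 to 47.7 TPM in ctrl, and the endothelial markers to 90.4 to 111 TPM and 95.8 to 145 TPM. All these are descriptions over 12 tumours of 4 treatments. The r values with markers given here were the farthest from 0 among all members and marker lists. They would be far from 0 in part for that reason alone.

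**Figure D4:**
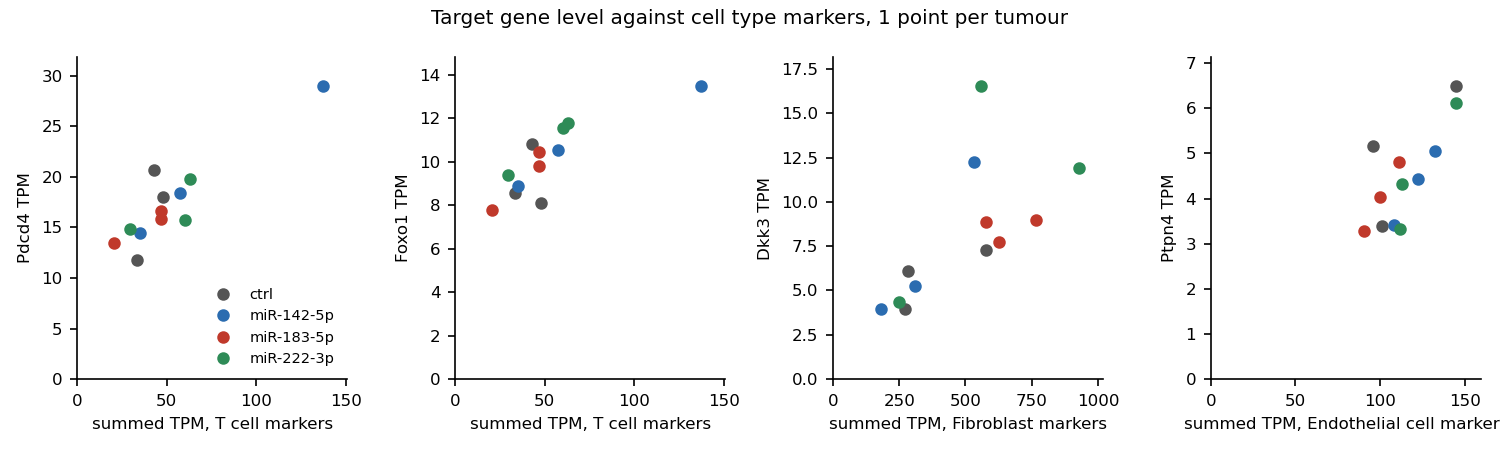
Level of Pdcd4, Foxo1, Dkk3 and Ptpn4 (TPM, vertical axes) against the summed TPM of the markers of a cell type (horizontal axes), 1 point per tumour, coloured by group. The miR-142-5p tumour with 137 TPM of T cell markers has the highest Pdcd4 and Foxo1. Whether the miR-183-5p tumours follow a trend of the others was not tested.

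For each of 9 members, the protein-coding gene most like it over the 12 tumours was taken from 11327 genes with a mean normalised count of at least 100. Foxo1 was most like Hacl1 (r = 0.89), Egr1 like Aspn (0.85), Smad4 like Zswim4 (0.88) and Pdcd4 like Arhgap25 (0.92). Ezr was most like Man2b1 (r = 0.81) and Kif2a like Clic4 (0.88). Akap12 was most like Akap2 (r = 0.90), another anchor of protein kinase A, Ptpn4 like Ino80 (0.96) and Dkk3 like Nkd2 (0.97). Each is the highest of many r values and would be high in part for that reason alone.

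The other genes of the members' pathways were examined as lists, and in none of the 4 contrasts did any of their 119 tested genes other than the members pass the adjusted threshold of DESeq2. Unadjusted p-values under 0.05 numbered 6 of 119 against ctrl (3.22% of all genes), 12 against miR-142-5p (7.95%), 4 against miR-222-3p (3.25%) and 13 against the mean of the other groups (5.7%). Counts by list include the member. Around Foxo1, 9 of 18 FoxO pathway genes tested had a log2 fold change below 0 against ctrl (median 0.00). Cat, which encodes catalase, was at 32.5 ± 3.204 TPM in ctrl and 38.5 ± 2.95 TPM in miR-183-5p (SD, n = 3), a log2 fold change of 0.27 (SE 0.11). Its mean was 43.1 TPM in miR-142-5p and 38.2 TPM in miR-222-3p, so that ctrl was the low group. Cdkn1a, the cell cycle inhibitor p21, was at 0.37 (SE 0.23). Around Egr1, 6 of 15 immediate early genes were below 0 (median 0.07), with Ier3 at 0.51 (SE 0.32) and Egr2 at 0.44 (SE 0.33). Around Smad4, 7 of 18 genes of SMAD signalling were below 0 (median 0.03). The BMP target Id3 was at 152 ± 37.4 TPM in ctrl and 100.2 ± 34.6 TPM in miR-183-5p, a log2 fold change of -0.58 (SE 0.29), with means of 141 TPM in miR-142-5p and 120.4 TPM in miR-222-3p. Around Pdcd4, 5 of 13 genes of translation initiation were below 0 (median 0.02), with the scaffolds Eif4g3 at -0.20 (SE 0.13) and Eif4g1 at -0.10 (SE 0.10).

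Among the 19 integrin β1 partners, 10 were below 0 against ctrl (median -0.01). The collagen-binding chain Itga11 was at 0.126 ± 0.0632 TPM in ctrl and 0.364 ± 0.0704 TPM in miR-183-5p, a log2 fold change of 1.56 (SE 0.58), with 0.181 and 0.174 TPM in miR-142-5p and miR-222-3p, and the kindlin Fermt2 was at 0.41 (SE 0.17). Itga11 is mainly a fibroblast gene, and the fibroblast markers of these tumours are given with Dkk3; their part was not tested. Of the 8 ERM genes (ezrin, radixin, moesin and their partners), 4 were below 0 (median 0.00), with Nf2 at -0.08 (SE 0.09) and Slc9a3r1 at 0.13 (SE 0.17). Of the 9 genes of kinesin-13 and the mitotic spindle, 1 was below 0, and the median of 0.39 was the highest of the lists. The kinesin Kif18a was at 0.39 (SE 0.23) and the mitotic kinase Plk1 at 0.48 (SE 0.30), with 30.2 ± 16.0 TPM in ctrl and 41.3 ± 6.46 TPM in miR-183-5p and means of 35.4 TPM in miR-142-5p and 30.6 TPM in miR-222-3p. None of the 9 had an unadjusted p under 0.05.

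Among the 15 anchors and subunits of protein kinase A, 10 were below 0 (median -0.04). Akap7 was at 20.6 ± 1.84 TPM in ctrl and 15.8 ± 2.56 TPM in miR-183-5p, a log2 fold change of -0.37 (SE 0.17), with means of 18.8 TPM in miR-142-5p and 18.6 TPM in miR-222-3p, and Prkar1a was at 0.12 (SE 0.08). Of the 5 phosphatases with a FERM domain, 3 were below 0 (median -0.15), with Ptpn13 at 0.26 (SE 0.28) and Ptpn14 at -0.15 (SE 0.17). Of the 9 Dickkopf and Wnt receptor genes tested, 3 were below 0 (median 0.08), and Dkk2 (1.51, SE 0.72) and Kremen2 (-1.85, SE 1.04) were both under 1 TPM in every group mean. The adjusted p of each gene named here was 0.9999 in DESeq2. Without miR-183-5p tumour 3, the values against ctrl were -0.33 for Id3, 0.09 for Ptpn13, 0.26 for Fermt2, -0.24 for Akap7 and -0.17 for Eif4g1, and those of the other genes named moved by less than 1.5 times, among them Cat at 0.23, Itga11 at 1.40 and Plk1 at 0.34.

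The values of the members were recomputed with 11 other fits, filters or scalings and with each of the 12 tumours left out, which gave 910 values over the 4 contrasts. In none of them did a member pass the adjusted threshold, the lowest adjusted p being 0.172. The sign changed in 40 of the 910. Against ctrl, Itgb1, Kif2a, Smad4 and Dkk3 stayed above 0 and Ptpn4 stayed below 0 in all 23 settings, whereas Foxo1, Egr1, Pdcd4, Ezr and Akap12 changed sign in at least 1. Without miR-183-5p tumour 3, the values against ctrl were 0.25 for Egr1, 0.17 for Foxo1, 0.13 for Itgb1, 0.06 for Smad4, 0.05 for Kif2a, 0.03 for Akap12, -0.01 for Ezr, -0.03 for Pdcd4, -0.27 for Ptpn4 and 0.54 for Dkk3.

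**Figure D5:**
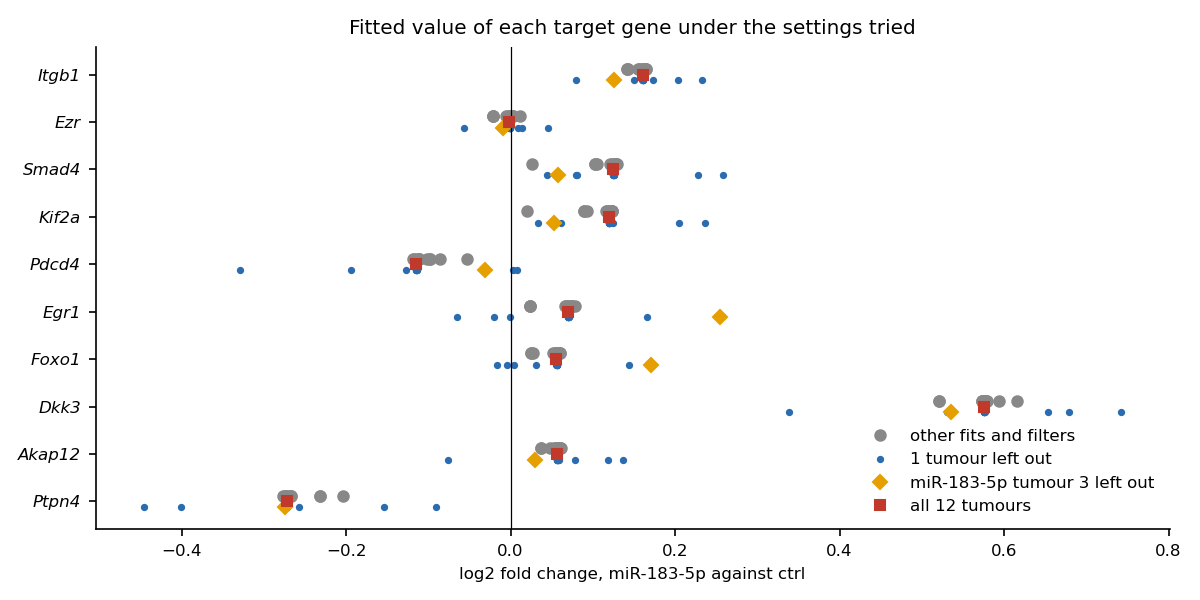
Fitted log2 fold change of each target gene in miR-183-5p against ctrl (horizontal axis) with all 12 tumours (red square), under other fits and filters (grey), and with 1 tumour left out (blue, or orange for miR-183-5p tumour 3). Leaving out a tumour moves the values more than a change of fit, and Ptpn4 is the only gene that lies below 0 throughout.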

How the data were processed

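Strand-specific libraries of polyadenylated RNA from 12 tumours were analysed (3 per group, grouped by the sample labels). The authors quantified the reads with Salmon. The deposited tables, made by the authors, hold an estimated count of reads (an expected count) and a TPM for each of 118783 transcripts, and the authors' methods and the names of the deposited tables point to different Ensembl releases. Identifiers were matched without version to GENCODE M21 on GRCm38 (116622 transcripts, 98.18%, 35865 genes). Unmatched transcripts held 0.669% to 0.708% of the reads and were not used here. Genes that share reads with near copies depend on how these were split.

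Per gene, the estimated counts were added up and rounded, with the TPM-weighted effective length as an offset. DESeq2 1.42.0 (R 4.3.3, Wald test, unshrunken log2 fold change, Benjamini-Hochberg over all genes, threshold 0.05) was fitted to the 12 libraries with the group as factor. The fit covered 15473 genes that had 10 or more reads in 3 or more libraries (15426 with an adjusted p). Intervals are 95% Wald intervals. The self-test on simulated counts was run on the same code. Within groups, chi-square statistics of counts over their degrees of freedom were 14.0 to 60.3, so no library was a copy of another of its group. No label says that tumours of a group came from separate experiments. Each is taken as 1 animal, and p-values set a fitted difference against the estimated spread between these tumours.

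Alternatives were edgeR 4.0.16 (quasi-likelihood), TMM factors, no count filter, at least 50 reads in every library, no length offset, protein-coding genes only, a block for the replicate number, a fit to the 2 groups of a contrast alone, limma 3.58.1 on log2(TPM + 1) for genes with at least 1 TPM in at least 3 libraries, a pseudocount of 0.1, no TPM filter, and each tumour left out. The genes named were the 10 members, the 2 genes of each pathway list with the lowest p against ctrl, any called gene of a list, and the gene most correlated with each member. A few genes that this rule or the lists name are not reported here. The members and lists were chosen with earlier results of these data known. Cell type markers were fixed as lists. Those of keratinocytes summed to 3.61 to 5.39 TPM, of adipocytes to 0.984 to 4.70 TPM and of red cells (globins) to 150 to 758 TPM over the 12 tumours. Plots used Python 3.11.15 and matplotlib 3.10.9.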

Additional observations from a re-analysis of the deposited data

Results flagged for a closer look

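Akap12 was flagged in the comparison of treatments, by a pattern that was counted for each ordered pair of treatments. In normalised counts, each of the 3 miR-183-5p tumours was above the mean of ctrl and each of the 3 miR-222-3p tumours was below it, and the mean log2 difference between these groups was 0.30. The contrast of the groups did not pass in DESeq2 (log2 fold change 0.28, SE 0.20, adjusted p 0.999) and was 0.16 without miR-222-3p tumour 2. Of all genes tested, 0.976% showed the same pattern, with these groups above and below the ctrl mean. Each of the other ordered pairs of treatments showed such a pattern in 0.504% to 1.59% of the genes. The normalised count of miR-183-5p tumour 2 was just above the ctrl mean (499 against 496). By TPM that tumour was below the ctrl mean (4.99 against 5.18 TPM), so the pattern was absent, and the Akap12 levels of the groups overlapped.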

How the results depend on the processing

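No member passed the adjusted threshold under any setting. The number of genes called was 0 against ctrl, 8 against miR-142-5p, 5 against miR-222-3p and 3 against the mean of the other 3 groups. edgeR called 0 in each contrast, and the fit to the 2 groups compared called 36, 71 and 18 in the first 3. That fit has no counterpart for the mean of the other groups. With the replicate block, 1, 9 and 1 genes were called against ctrl, miR-222-3p and the mean (6 against miR-142-5p). No label says that the numbers pair the tumours. Deviations of same-numbered tumours had a mean correlation of -0.04 (-0.44 to 0.22) and those of others 0.02 (-0.26 to 0.44). These correlations share tumours, so their means do not settle whether the numbers pair them. Without a count filter, 5 were called against miR-142-5p and 1 against the mean. With at least 50 reads in every library, 0 were called against miR-222-3p and 1 against the mean. No length offset gave 4 against miR-142-5p, and protein-coding genes alone gave 0 against miR-222-3p. The TPM fits called 0 in each contrast with either pseudocount, and without the TPM filter 4, 3 and 3 against ctrl, miR-142-5p and miR-222-3p. Leaving out a tumour gave 0 to 15, 0 to 415, 0 to 17 and 0 to 70 genes, the 415 and 70 without miR-142-5p tumour 1 and the 15 without miR-183-5p tumour 2.

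Signs near 0 turned, with no p past the threshold and the cause not tested. Ezr against ctrl was 0.00266 with edgeR, 0.00256 with TMM factors, 1.77e-05 without a count filter, 0.0118 without length offset and 0.00222 with only the 2 groups. Ezr against miR-222-3p was -0.000259 and -0.00023 with pseudocounts of 1 and 0.1 and -0.000259 without the TPM filter. Egr1 against the mean was -0.00866, -0.0101 and -0.00866 in the same fits. With 1 tumour left out, the values against ctrl ran from -0.0755 to 0.14 for Akap12, from -0.0656 to 0.25 for Egr1, from -0.0569 to 0.0459 for Ezr, from -0.0164 to 0.17 for Foxo1 and from -0.33 to 0.00748 for Pdcd4. The values against miR-142-5p ran from -0.0398 to 0.28 for Akap12, from -0.0590 to 0.96 for Dkk3, from -0.10 to 0.22 for Egr1 and from -0.20 to 0.0478 for Ptpn4. The values against miR-222-3p ran from -0.75 to 0.0611 for Dkk3, from -0.16 to 0.18 for Egr1, from -0.00647 to 0.0495 for Ezr and from -0.30 to 0.0688 for Ptpn4. The values against the mean of the other 3 groups ran from -0.11 to 0.21 for Egr1. The members had at least 186 reads in each library, and the shares of counting error and of tumour spread in their errors were not tested. With 3 tumours a group, the intervals reached to levels 7.25% (Itgb1) to 39.4% (Ptpn4) below ctrl.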
